A study of Homo sapiens with 6 samples.

Results

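The spliceosome core examined here is 39 genes that encode proteins of the small nuclear ribonucleoprotein particles (snRNPs), the RNA and protein particles that build the spliceosome, with the 2 subunits of U2AF. The members were taken by symbol from a list of known snRNP proteins; the rule uses no measured value, but the list was drawn up with earlier results of these data known. All 39 were found among the 20289 genes of the table. Ribosome footprints, the pieces of mRNA that a translating ribosome protects from nuclease, had been sequenced from RKO, a human colorectal cancer line. One group carried a short hairpin RNA against TRMT6 (ShTRMT6 in the labels, shTRMT6 here, 3 libraries) and the other a control hairpin (ShControl in the labels, which also mark these cells WT, shControl here, 3 libraries). TRMT6 is a subunit of the enzyme that places the m1A mark on tRNAs. Beyond the hairpin the labels name no treatment, time or dose, nor do they say whether a hairpin line is 1 clone. Whether replicates were grown separately is also not stated, and a p-value here reflects variation among 6 libraries that may be technical.

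Pre-mRNA splicing begins when the U1 snRNP pairs with the 5′ splice site, U2AF binds the 3′ end of the intron and the U2 snRNP settles on the branch point. The U4, U5 and U6 snRNPs then join as a tri-snRNP, which is remodelled into the active enzyme. The U1, U2, U4 and U5 particles share a ring of small Sm proteins around their RNA, and U6 carries a related ring of LSM proteins. The particle-specific proteins of U2 and U5 include very large scaffolds and helicases. The SMN complex loads Sm rings onto snRNA in the cytoplasm.

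By residues in the GENCODE 29 models, the 15 ring proteins ran from 76 in SNRPG to 231 in SNRPB, and the 9 longest U2 and U5 proteins, called the large genes below, ran from 501 in SF3A3 to 2335 in PRPF8. The other 15 members were 3 U1 proteins, 6 smaller U2 proteins, 1 smaller U5 protein, 3 U4/U6 proteins and the 2 U2AF subunits. The genes lie on 18 chromosomes, 8 of them on chromosome 19.

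TRMT6, the hairpin's target, had 20.7, 21.9 and 24.1 FPKM in the shTRMT6 libraries, against 57.6, 58.4 and 95.3 FPKM in the shControl libraries (log2 fold change -1.58, SE 0.27, limma adjusted p = 0.00301), with no overlap between the groups. FPKM divides a gene's footprints by its length and by library size, so levels of different genes below are per length. Steps between low values gave an estimated 2584000 to 4082000 reads per shTRMT6 library and 2594000 to 3906000 per shControl library. The epithelial markers EPCAM, KRT8, KRT18 and CDX2 were above 0 in all 6 libraries, whereas CDH1 and VIL1 were at 0 in all 6 and KRT19 was above 0 in 1 library. The 7 epithelial markers summed to 168 to 193 FPKM in shTRMT6 and 165 to 262 FPKM in shControl. Of 10 immune, fibroblast and endothelial markers 5 were at 0 in every library, and no list exceeded 2.82 FPKM in any library. ShControl replicate 3 stood apart from the other control libraries, for the members and also over all tested genes. Over the 39 genes, Pearson's r of log2(FPKM + 1) was 0.990 between shControl replicates 1 and 2, 0.946 and 0.943 between either of them and replicate 3, and 0.973 to 0.990 among the shTRMT6 libraries. Over all tested genes r was 0.964 between shControl replicates 1 and 2, and 0.944 and 0.936 between either of them and replicate 3. Of the 15 ring genes 14 were lower in shControl replicate 3 than in both other control libraries, and all 9 large U2 and U5 genes were higher in it. Among all tested genes 47.0% were lower in shControl replicate 3 than in both others, and 31.9% higher.

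Across the 39 genes, 10 fell and 5 rose after TRMT6 knockdown at a limma adjusted p under 0.05, and 24 did not pass. The 10 that fell are SNRPB, SNRPD1, SNRPD3 and SNRPF of the Sm ring, SNRPC of U1, SNRPB2, SF3B2 and SF3B6 of U2, SNRNP40 of U5, and U2AF1. The 5 that rose are SF3A2 and SF3B3 of U2, PRPF6 and SNRNP200 of U5, and PRPF3 of U4/U6. The members called lower were 25.6% of the 39, beside 9.04% of the 11566 tested genes, and the members called higher were 12.8%, beside 26.5% of tested genes. The median log2 fold change was -0.18 over the members and 0.39 over all tested genes. All members passed the filter on low values, since the lowest value of any of them was 7.48 FPKM. The groups did not overlap for 17 members, 43.6%, beside 51.4% of tested genes, so separation of the groups was not more frequent among the members. A fold change is given as a difference of log2(FPKM + 1), which understates changes of low genes, and footprint level joins mRNA amount with ribosomes per mRNA. In these bulk libraries fewer cells making an mRNA and less mRNA per cell cannot be told apart.

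**Figure D1:**
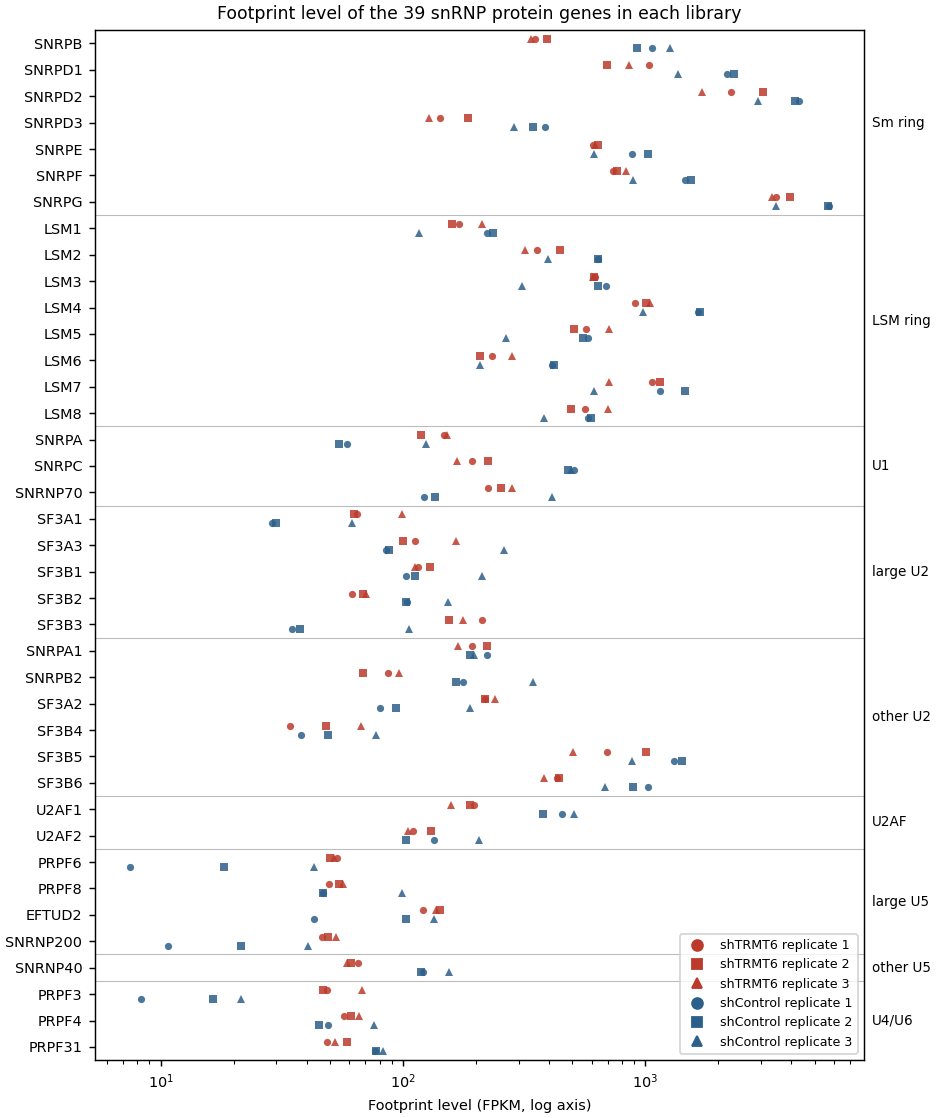
Footprint level in FPKM on a log axis for each of the 39 genes (rows, grouped by particle), with one point per library, shTRMT6 in red above shControl in blue and a marker shape per replicate. Ring genes at the top sit mostly above 100 FPKM, and the triangle of shControl replicate 3 lies left of the other control points in 14 of 15 ring genes and right of them in all 9 large U2 and U5 genes.

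The Sm ring is the heptamer of SNRPB, SNRPD1, SNRPD2, SNRPD3, SNRPE, SNRPF and SNRPG that closes around the Sm site of snRNA. Of its 7 genes 4 fell and none rose, and all 7 log2 fold changes were negative, with a median of -0.71, though with quantile normalization SNRPE and SNRPG turned to 0.0147 and 0.035. Of tested genes with 228 to 693 nt of coding sequence, 23.2% were lower and 12.5% higher, with a median of -0.13. Those genes were not matched to the Sm genes in level. SNRPB, which encodes SmB and its splice form SmB′, had 349, 392 and 337 FPKM in the shTRMT6 libraries, against 1062, 925 and 1259 FPKM in the shControl libraries. Every knockdown library was below every control library (log2 fold change -1.58, SE 0.20, limma adjusted p = 0.00114). SNRPD3, the partner of SmB in the ring, had 142, 185 and 128 FPKM in the shTRMT6 libraries, against 384, 344 and 286 FPKM in the shControl libraries, again without overlap (log2 fold change -1.16, SE 0.23, limma adjusted p = 0.00519). SNRPD1 had 1038, 695 and 854 FPKM in the shTRMT6 libraries, against 2168, 2329 and 1369 FPKM in the shControl libraries (log2 fold change -1.16, SE 0.26, limma adjusted p = 0.00884). Its groups did not overlap, and shControl replicate 3 was the lowest control. SNRPF had 737, 760.2 and 830.5 FPKM in the shTRMT6 libraries, against 1454, 1549 and 890.0 FPKM in the shControl libraries. Its groups were separated by a narrow gap, and the call was marginal (log2 fold change -0.70, SE 0.24, limma adjusted p = 0.0491). SNRPF did not pass in 5 of the 6 fits that each leave out 1 library (limma adjusted p = 0.103 to 0.152 in those 5), and passed without shControl replicate 3 (limma adjusted p = 0.00215).

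SNRPG, SNRPE and SNRPD2 did not pass. SNRPG had 3458, 3934 and 3338 FPKM in the shTRMT6 libraries, against 5715, 5658 and 3453 FPKM in the shControl libraries (log2 fold change -0.43, SE 0.25, limma adjusted p = 0.195). SNRPE had 609, 639 and 621 FPKM in the shTRMT6 libraries, against 882, 1022 and 612 FPKM in the shControl libraries (log2 fold change -0.40, SE 0.23, limma adjusted p = 0.201). In both, the shTRMT6 values lay close to each other, and shControl replicate 3 sat among them while shControl replicates 1 and 2 were higher. SNRPD2 had 2259, 3055 and 1709 FPKM in the shTRMT6 libraries, against 4304, 4139.7 and 2904 FPKM in the shControl libraries, with overlapping groups (log2 fold change -0.71, SE 0.27, limma adjusted p = 0.0638). Without shControl replicate 3 all 7 Sm genes were called lower, SNRPG with a log2 fold change of -0.67, SNRPE with -0.61 and SNRPD2 with -0.89 (limma adjusted p = 0.00656, 0.0101 and 0.018). In that fit 12.3% of tested genes were lower. SNRPD2 also passed without shTRMT6 replicate 2 (limma adjusted p = 0.0454).

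Per length, the levels of the 7 Sm genes spanned a wide range although the ring holds 1 copy of each protein. In shTRMT6 the order by mean was SNRPG (3577 ± 315 FPKM), SNRPD2, SNRPD1, SNRPF, SNRPE, SNRPB and SNRPD3 (152 ± 29.6 FPKM). In shControl it was SNRPG (4942 ± 1290.0 FPKM), SNRPD2, SNRPD1, SNRPF, SNRPB, SNRPE and SNRPD3 (338 ± 49.4 FPKM; SD, n = 3 each). Neighbours in this order differed by less than the larger of their SDs for SNRPD1 and SNRPF in shTRMT6, and for SNRPG and SNRPD2 and for SNRPF and SNRPB in shControl. SNRPB was below SNRPE in each shTRMT6 library, and below it in 1 of 3 shControl libraries. The highest Sm gene exceeded the lowest 24.4-fold, 21.3-fold and 26.0-fold in the shTRMT6 libraries, against 14.9-fold, 16.4-fold and 12.1-fold in the shControl libraries.

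The LSM genes encode a ring of the same fold. LSM2 to LSM8 bind the 3′ end of U6 in the nucleus, while LSM1 replaces LSM8 in a cytoplasmic ring that acts in mRNA decay. None of the 8 genes passed in either direction, and the median log2 fold change was -0.05, with signs that for 6 of the 8 (LSM1, LSM3, LSM4, LSM5, LSM7 and LSM8) depended on the scaling. The lowest log2 fold change was that of LSM2, with 357, 446 and 318 FPKM in the shTRMT6 libraries, against 640.3, 634 and 396 FPKM in the shControl libraries (log2 fold change -0.56, SE 0.25, limma adjusted p = 0.11). The highest log2 fold change was that of LSM5, with 569, 505 and 704 FPKM in the shTRMT6 libraries, against 579, 552 and 266 FPKM in the shControl libraries (log2 fold change 0.42, SE 0.31, limma adjusted p = 0.315). In both, shControl replicate 3 was the lowest of the control libraries, as it was in all 8 LSM genes. LSM8, the nuclear subunit, had 563, 495 and 699 FPKM in the shTRMT6 libraries, against 579.5, 596 and 381 FPKM in the shControl libraries (log2 fold change 0.19). LSM1, the cytoplasmic one, had 170.4, 159 and 213 FPKM in the shTRMT6 libraries, against 223, 234 and 117 FPKM in the shControl libraries (log2 fold change -0.03). The groups overlapped for all 8. The remaining LSM3, LSM4, LSM6 and LSM7 had log2 fold changes between -0.51 for LSM4 and 0.26 for LSM3. Without shControl replicate 3, LSM2, LSM4 and LSM6 were called lower (log2 fold changes -0.78, -0.76 and -0.80; limma adjusted p = 0.0102, 0.0042 and 0.00857) and the other five were not. Of tested genes 12.3% were lower in that fit. With trends of footprint level and coding length removed in each library, LSM3 and LSM5 were called higher (log2 fold changes 0.56 and 0.64). That fit called 13.5% of tested genes higher.

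In the U1 snRNP, SNRPC fell while SNRPA and SNRNP70 had positive log2 fold changes (SNRNP70 -0.0839 with median scaling) and did not pass. SNRPC, the zinc-finger protein U1-C that stabilises pairing with the 5′ splice site, had 193, 225 and 167 FPKM in the shTRMT6 libraries, against 506, 479 and 494 FPKM in the shControl libraries. The knockdown values were all lower, and the control values lay close together, shControl replicate 3 included (log2 fold change -1.34, SE 0.20, limma adjusted p = 0.00185). SNRPA, the U1-A protein that binds a stem-loop of U1 RNA, had 148, 118 and 152 FPKM in the shTRMT6 libraries, against 58.5, 54.5 and 125 FPKM in the shControl libraries (log2 fold change 0.90, SE 0.32, limma adjusted p = 0.0524). SNRNP70, the U1-70K protein, had 223, 255 and 282 FPKM in the shTRMT6 libraries, against 122, 135 and 413 FPKM in the shControl libraries (log2 fold change 0.41, SE 0.41, limma adjusted p = 0.46). For both, shControl replicates 1 and 2 were below all knockdown libraries and shControl replicate 3 was not. Without that library both were called higher, SNRPA at 1.28 (limma adjusted p = 0.00251) and SNRNP70 at 0.97 (limma adjusted p = 0.00422). That fit called 28.3% of tested genes higher. SNRNP70 was at 0.17 without shControl replicate 2 and at 0.09 without shControl replicate 1.

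Genes of the U2 snRNP moved in both directions, also within the SF3B subcomplex, which with SF3A clamps the particle to the branch site. Of the 11 U2 genes 2 rose, 3 fell and 6 did not pass, where 26.5% of all tested genes were called higher and 9.04% lower. SF3B3, the WD40-repeat scaffold of SF3B, had 212, 155 and 177 FPKM in the shTRMT6 libraries, against 34.9, 37.5 and 106 FPKM in the shControl libraries. All knockdown values exceeded all control values (log2 fold change 1.78, SE 0.39, limma adjusted p = 0.00817). SF3B2, another SF3B subunit, had 61.9, 68.4 and 70.3 FPKM in the shTRMT6 libraries, against 104, 103 and 154 FPKM in the shControl libraries, lower without overlap (log2 fold change -0.81, SE 0.24, limma adjusted p = 0.0244). SF3B2 did not pass when any 1 of the shTRMT6 libraries was left out (limma adjusted p = 0.0661 to 0.0960). SF3B1, the subunit that grips the branch-site helix, had 115, 129.8 and 113 FPKM in the shTRMT6 libraries, against 103, 112 and 211 FPKM in the shControl libraries, with overlap and no call (log2 fold change -0.18, SE 0.29, limma adjusted p = 0.66). SF3B6, the small subunit that touches the branch-point adenosine, fell to 434, 440.1 and 382 FPKM in the shTRMT6 libraries, against 1028, 887 and 679 FPKM in the shControl libraries (log2 fold change -1.03, SE 0.22, limma adjusted p = 0.00702). Its groups did not overlap. SF3B5 had 695, 1006 and 503 FPKM in the shTRMT6 libraries, against 1312, 1421 and 881 FPKM in the shControl libraries (log2 fold change -0.74), and SF3B4, which had a log2 fold change of -0.12, did not pass either. SF3B5 passed without shTRMT6 replicate 2 (limma adjusted p = 0.0423) and without shControl replicate 3 (limma adjusted p = 0.0244).

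In SF3A, SF3A2 rose, with 218, 217 and 240.2 FPKM in the shTRMT6 libraries, against 80.6, 93.5 and 188 FPKM in the shControl libraries (log2 fold change 0.99, SE 0.31, limma adjusted p = 0.0317). Its groups did not overlap, but it did not pass in 5 of the 6 fits without 1 library (limma adjusted p = 0.0789 to 0.110), passing without shControl replicate 3 at 1.36. SF3A1 had 64.8, 63.0 and 98.6 FPKM in the shTRMT6 libraries, against 28.9, 29.9 and 61.6 FPKM in the shControl libraries, also without overlap, and missed the threshold by little (log2 fold change 0.95, SE 0.33, limma adjusted p = 0.0501). It passed without shControl replicate 3 (limma adjusted p = 0.00606). SF3A3 had 112, 100.2 and 165 FPKM in the shTRMT6 libraries, against 85.2, 87.4 and 261 FPKM in the shControl libraries, with shControl replicate 3 above every other library (log2 fold change -0.03, SE 0.42, limma adjusted p = 0.968). The dimer that binds the fourth stem-loop of U2 RNA had 1 member that fell and 1 that did not pass. SNRPB2, the U2-B″ protein, had 86.6, 68.5 and 96.7 FPKM in the shTRMT6 libraries, against 176, 165 and 345 FPKM in the shControl libraries and fell (log2 fold change -1.37, SE 0.30, limma adjusted p = 0.0086), while its partner SNRPA1, U2-A′, had 193, 222 and 169 FPKM in the shTRMT6 libraries, against 223, 189 and 197 FPKM in the shControl libraries (log2 fold change -0.07, SE 0.21, limma adjusted p = 0.824). The SNRPA1 groups overlapped throughout.

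U2AF1, the U2AF subunit that reads the AG at the end of the intron, fell, and its partner U2AF2, which binds the polypyrimidine tract, did not pass. U2AF1 had 197, 189 and 157 FPKM in the shTRMT6 libraries, against 453, 377 and 507 FPKM in the shControl libraries (log2 fold change -1.29, SE 0.21, limma adjusted p = 0.00255). U2AF2 had 109.9, 131 and 105 FPKM in the shTRMT6 libraries, against 134, 103 and 206 FPKM in the shControl libraries (log2 fold change -0.30, SE 0.28, limma adjusted p = 0.416). The U2AF1 groups were far apart, and those of U2AF2 overlapped.

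Among the 5 U5 and 3 U4/U6 genes, 3 rose and 1 fell, where 26.5% of all tested genes were called higher and 9.04% lower. PRPF3, a U4/U6 protein, rose, with 48.6, 46.9 and 68.0 FPKM in the shTRMT6 libraries, against 8.30, 16.4 and 21.5 FPKM in the shControl libraries (log2 fold change 1.83, SE 0.35, limma adjusted p = 0.00485). Its control values rest on few reads, an estimated 55.1, 87.4 and 172 in shControl replicates 1 to 3. PRPF6, which bridges U5 and U4/U6 in the tri-snRNP, had 53.3, 49.8 and 52.1 FPKM in the shTRMT6 libraries, against 7.48, 18.3 and 43.0 FPKM in the shControl libraries (log2 fold change 1.45, SE 0.50, limma adjusted p = 0.0458). The PRPF6 control values rest on an estimated 68.4, 134 and 474 reads in shControl replicates 1 to 3. SNRNP200, the helicase that unwinds U4 from U6, had 46.5, 49.0 and 52.9 FPKM in the shTRMT6 libraries, against 10.8, 21.4 and 40.4 FPKM in the shControl libraries (log2 fold change 1.18, SE 0.41, limma adjusted p = 0.046). In both genes the knockdown values lay close together and the control values were widely spread, highest in shControl replicate 3. Both calls were lost in 5 of the 6 fits without 1 library (limma adjusted p = 0.0768 to 0.115 for PRPF6 and 0.0762 to 0.128 for SNRNP200) and held without shControl replicate 3 (log2 fold changes 2.04 and 1.63). The log2 fold changes of PRPF6 and SNRNP200 were 0.85 and 0.73 without shControl replicate 1, and 0.73 and 0.28 with trends of level and length removed.

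PRPF8, the scaffold of the splicing active site, had 49.3, 54.4 and 56.4 FPKM in the shTRMT6 libraries, against 46.9, 46.8 and 99.5 FPKM in the shControl libraries (log2 fold change -0.18, SE 0.31, limma adjusted p = 0.686). EFTUD2, the GTPase bound to PRPF8, had 121, 142 and 137 FPKM in the shTRMT6 libraries, against 42.9, 103 and 135 FPKM in the shControl libraries (log2 fold change 0.66, SE 0.37, limma adjusted p = 0.196). Neither passed, and only EFTUD2 did without shControl replicate 3, at 0.99 (limma adjusted p = 0.0469). Without shControl replicate 1 EFTUD2 was at 0.18 (limma adjusted p = 0.634). With the trends of level and length removed, PRPF8 was called lower at -1.02 (limma adjusted p = 0.0353). SNRNP40, the WD40 protein of U5, had 65.5, 61.0 and 58.7 FPKM in the shTRMT6 libraries, against 121, 119 and 155 FPKM in the shControl libraries and fell (log2 fold change -1.07, SE 0.22, limma adjusted p = 0.00589). PRPF4, the direct partner of PRPF3, had 56.9, 61.3 and 65.7 FPKM in the shTRMT6 libraries, against 49.0, 45.1 and 76.1 FPKM in the shControl libraries (log2 fold change 0.14, SE 0.26, limma adjusted p = 0.688). PRPF31, which binds U4 RNA, had 48.5, 58.9 and 52.2 FPKM in the shTRMT6 libraries, against 76.7, 77.5 and 82.3 FPKM in the shControl libraries. Its groups did not overlap, yet it did not pass (log2 fold change -0.56, SE 0.21, limma adjusted p = 0.0648). It passed without shControl replicate 3 (limma adjusted p = 0.0493), with trends of level and length removed, or with quantile normalization or median scaling (limma adjusted p = 0.00916, 0.0157 and 0.00635).

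Promoter windows are shown for the 2 lower and 2 higher called members of largest change that have a single entry in the RefSeq promoter table on GRCh38.p14, chosen after their values were seen, as the sequence context of members that moved in opposite directions. Each runs 5′ to 3′ on the gene's strand from 100 bases before to 20 after the annotated start, with matches to CCGGAAG, an ETS-family motif, or its reverse complement CTTCCGG in capitals.
SNRPB (chr20:2470770-2470889, minus strand): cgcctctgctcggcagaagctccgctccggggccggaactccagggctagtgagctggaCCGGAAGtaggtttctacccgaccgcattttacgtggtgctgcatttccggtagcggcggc
SNRPB2 (chr20:16729926-16730045, plus strand): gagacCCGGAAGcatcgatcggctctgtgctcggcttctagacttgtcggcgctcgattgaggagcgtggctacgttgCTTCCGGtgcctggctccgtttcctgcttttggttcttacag
PRPF6 (chr20:63981032-63981151, plus strand): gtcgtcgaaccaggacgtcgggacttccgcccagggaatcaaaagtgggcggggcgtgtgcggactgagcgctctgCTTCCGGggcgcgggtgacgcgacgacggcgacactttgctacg
SNRNP200 (chr2:96305527-96305646, minus strand): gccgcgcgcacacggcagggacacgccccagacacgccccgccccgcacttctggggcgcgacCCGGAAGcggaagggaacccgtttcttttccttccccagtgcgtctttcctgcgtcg
All 4 windows hold the motif, SNRPB2 with 2 matches. Of 28 members with a single entry, the chromosome of LSM1 left out, of 34 found in the table, 11 hold it, 3 of 3 called higher, 4 of 8 called lower and 4 of 17 not called. That is 39.3% of these members, beside 17.1% of 6597 tested genes chosen the same way and 6.87% of all 35116 windows of the table. Those tested genes were not matched to the members in level, and how the motif was chosen is not recorded. The shares were not tested against each other. The 3 called higher were SF3A2, PRPF6 and SNRNP200, and each lost its call in 5 of the 6 fits without 1 library. SF3B3 and PRPF3 had no single entry. Shares by call were not computed for other tested genes, so no link of motif and direction can be read from these counts. A match is a description of the letters and not a bound site.

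The ring genes and the large U2 and U5 genes had median log2 fold changes of opposite sign, but their levels did not separate the groups in every library. The 15 ring genes had a median log2 fold change of -0.47 (0.0147 with quantile normalization), with 4 lower and 0 higher. The 9 large genes had a median of 0.66, with 3 higher and 1 lower, and with 5 positive and 4 negative log2 fold changes. The parts of each set differed: the median was 0.92 over the 4 large U5 genes and -0.025 over the 5 large U2 genes. It was -0.71 over the 7 Sm genes and -0.05 over the 8 LSM genes. The median FPKM of the ring genes was 609, 614 and 699 in the shTRMT6 libraries, against 882, 925 and 612 in the shControl libraries. The median of the large genes was 64.8, 68.4 and 98.6 FPKM in the shTRMT6 libraries, against 42.9, 46.8 and 106 FPKM in the shControl libraries. The ring median divided by the large median was 9.39, 8.98 and 7.09 in the shTRMT6 libraries, against 20.6, 19.8 and 5.78 in the shControl libraries. ShControl replicate 3 thus had a lower ratio than every knockdown library, while shControl replicates 1 and 2 had ratios above them all, and the groups overlapped. Without shControl replicate 3 the medians were -0.76 for the ring genes and 0.99 for the large genes. They were nearer each other without shControl replicate 1, at -0.34 and 0.18, and with trends of level and length removed, at -0.16 and 0.19.

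**Figure D2:**
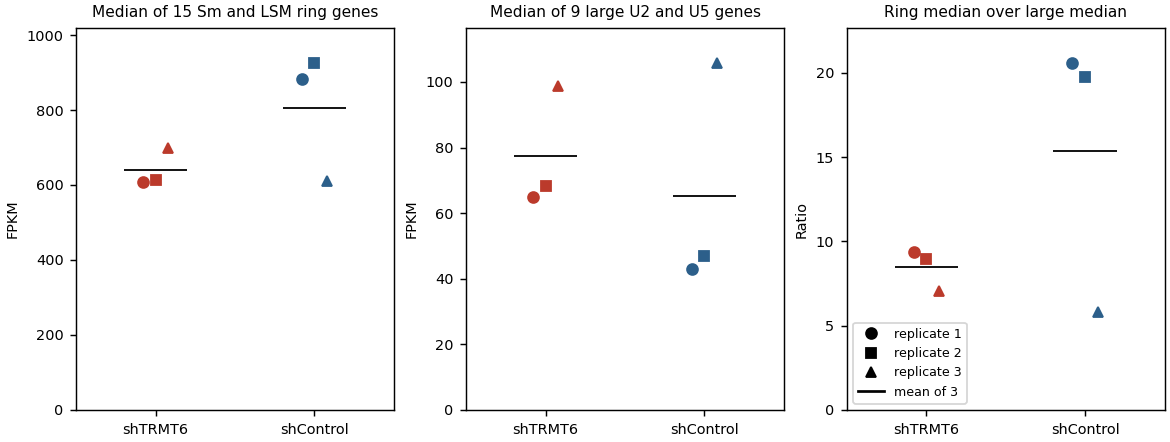
Median FPKM of the 15 ring genes (left), median FPKM of the 9 large U2 and U5 genes (middle) and their ratio (right), one point per library with shTRMT6 in red and shControl in blue, a marker shape per replicate and a bar at the mean of 3. The ratio is 7.09 to 9.39 in shTRMT6, 20.6 and 19.8 in shControl replicates 1 and 2, and 5.78 in shControl replicate 3.

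The sign of the median also differed between tested genes of the same 2 ranges of coding length. The 2015 tested genes with 228 to 693 nt of coding sequence, the range of the ring genes, had a median log2 fold change of -0.13, and 23.2% were lower and 12.5% higher. Of the 15 ring genes 26.7% were lower and 0 higher, and their median was -0.47. The 4876 tested genes of 1503 to 7005 nt, the range of the large genes, had a median of 0.68, and 36.0% were higher and 1.70% lower. Of the 9 large genes 33.3% were higher and 11.1% lower, and their median was 0.66. Members and other genes of their length range were not matched in level: the median over genes of mean shControl FPKM was 839 for the ring genes and 110.5 for their range, and 64.4 for the large genes and 14.3 for their range. The difference between members and their length range was not tested. ShControl replicate 3 differed from the mean of replicates 1 and 2 by a median of -0.56 (log2) over the genes in the short range and -0.72 over the ring genes, and by 0.08 over the genes in the long range and 1.07 over the large genes.

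**Figure D3:**
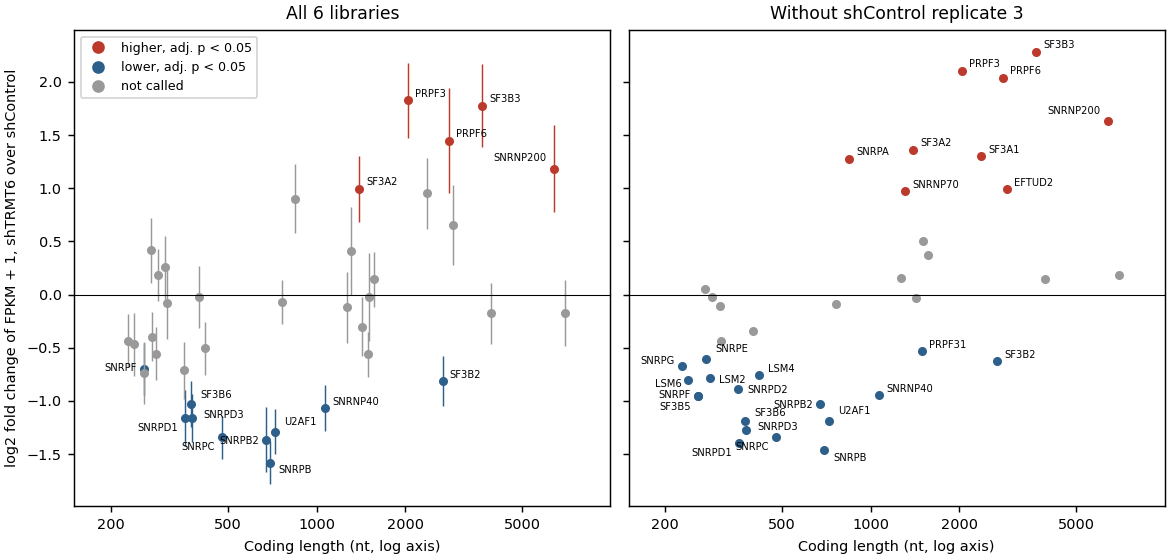
Log2 fold change of FPKM + 1, shTRMT6 over shControl, against coding length in nt on a log axis for the 39 genes, with all 6 libraries (left, bars are SE) and without shControl replicate 3 (right). Red genes were called higher, blue lower and grey not called: 5 higher and 10 lower on the left, 9 higher and 18 lower on the right.

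Without shControl replicate 3, 18 members were lower, 46.2%, beside 12.3% of tested genes, and 9 higher, 23.1%, beside 28.3%. With each library scaled to the same median, which moved the median of all tested genes to -0.07, 18 members were lower, 46.2%, beside 19.7% of tested genes, and 2 higher, 5.13%, beside 13.1%. SF3B3 and PRPF3 stayed called higher at 1.28 and 1.35, while SF3A2, PRPF6 and SNRNP200 did not pass (limma adjusted p = 0.252, 0.158 and 0.207). With the trends of level and length removed, 12 members were lower, 30.8%, beside 13.7% of tested genes, and 5 higher, 12.8%, beside 13.5%. SNRPB, SNRPD3, SNRPC, SNRPB2, SF3B6, U2AF1 and SNRNP40 were called lower, and SF3B3 and PRPF3 higher, under all 14 other settings run at the 0.05 threshold, each left-out library included.

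Ratios between subunits of one particle are given per library as a description, without a test. Over all 114 pairs of members within a particle, the ratio did not overlap between the groups in 71, 62.3%. By particle this held for 13 of 21 pairs of the Sm ring, 10 of 21 of LSM2 to LSM8, 2 of 3 of U1, 33 of 55 of U2, 9 of 10 of U5, 3 of 3 of U4/U6 and the 1 pair of U2AF. The share over pairs of other tested genes was not computed, and single tested genes did not overlap in 51.4%. Whether 62.3% is more than usual is therefore not known. Pairs share members and are not independent. The pairs below were chosen after their values were seen, so that their separation was fixed by the choice. The ratio of SF3B3 to SF3B1 was 1.83, 1.19 and 1.57 in the shTRMT6 libraries, against 0.338, 0.336 and 0.501 in the shControl libraries. The ratio of PRPF3 to PRPF4 was 0.855, 0.764 and 1.04 in the shTRMT6 libraries, against 0.169, 0.364 and 0.283 in the shControl libraries. For PRPF6 to PRPF8 it was 1.08, 0.916 and 0.924 in the shTRMT6 libraries, against 0.160, 0.391 and 0.432 in the shControl libraries. PRPF3 and PRPF6 had few reads in shControl replicate 1, an estimated 55.1 and 68.4. These 3 ratios were higher in each knockdown library than in each control library, shControl replicate 3 included. SNRNP200 to PRPF8 gave 0.943, 0.902 and 0.940 in the shTRMT6 libraries, against 0.230, 0.457 and 0.406 in the shControl libraries. The ratio of SNRPA to SNRPC was 0.765, 0.527 and 0.911 in the shTRMT6 libraries, against 0.116, 0.114 and 0.253 in the shControl libraries. The ratio of SNRPB to SNRPG was 0.101, 0.0997 and 0.101 in the shTRMT6 libraries, against 0.186, 0.164 and 0.365 in the shControl libraries, lower in each knockdown library, with the knockdown values nearly equal. The ratio of LSM8 to LSM1, which sit in separate rings, was 3.31, 3.11 and 3.29 in the shTRMT6 libraries, against 2.60, 2.54 and 3.26 in the shControl libraries, with overlapping groups.

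**Figure D4:**
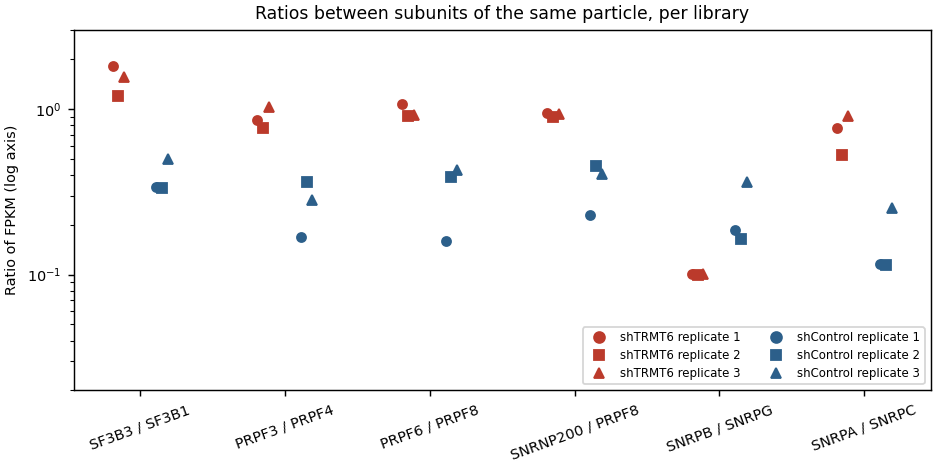
Ratio of FPKM between 2 subunits of one particle (log axis) in each library for 6 pairs, with shTRMT6 in red left of shControl in blue and a marker shape per replicate. The pairs were chosen after their values were seen. In all 6 the shTRMT6 points are separate from the shControl points, and SNRPB over SNRPG is the pair that is lower in shTRMT6, at 0.0997 to 0.101 against 0.164 to 0.365 in shControl.

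Across the 39 members, Spearman's rho of log2 fold change was 0.42 with coding length, -0.59 with mean FPKM in shControl and 0.09 with the GC percentage of the coding sequence. Over all tested genes rho was 0.36 with coding length and -0.50 with shControl level, which shares the control libraries with the fold change. With trends removed, rho with coding length was 0.04 over the members. Coding length had a rho of 0.84 with the log2 difference of shControl replicate 3 from the other control libraries over the members, and 0.31 over all tested genes. These are descriptions across genes that share libraries.

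Reads of some members could be divided with other genes. In GENCODE 29, 10 members have pseudogenes named after them, with 20 for SNRPG, 18 for SNRPC and 9 for SNRPE, and the coding exons of SNRPB, SNRPA, SF3A1, LSM1 and PRPF31 overlap exons of another gene, so their values are less certain. SNRPN, which encodes a near-identical relative of SmB, was listed at 0 in every shControl library and in 2 shTRMT6 libraries, and at 1.79 FPKM in shTRMT6 replicate 1.

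Other genes of splicing and snRNP assembly, 112 symbols in 10 lists of which 2 are older names of genes also listed, gave 109 tested genes. Of these 24 were higher, 22.0%, beside 26.5% of tested genes, and 16 lower, 14.7%, beside 9.04%. Among 19 genes of snRNP assembly 5 were lower and 0 higher: CLNS1A and WDR77, which act with the arginine methyltransferase PRMT5 on Sm proteins, GEMIN7 of the SMN complex, and PHAX and SNUPN, which carry snRNAs or snRNPs across the nuclear envelope. GEMIN7 had 23.7, 28.6 and 16.0 FPKM in the shTRMT6 libraries, against 69.5, 65.7 and 60.1 FPKM in the shControl libraries (log2 fold change -1.51, SE 0.27, limma adjusted p = 0.00365). The 7 further U1 genes had 4 higher and 0 lower, led by PRPF39, a U1-associated protein, with 257, 386 and 322 FPKM in the shTRMT6 libraries, against 41.7, 96.1 and 64.0 FPKM in the shControl libraries (log2 fold change 2.30, SE 0.31, limma adjusted p = 0.00137). In the U11/U12 list of the minor spliceosome 4 of 11 were higher and 2 lower. RNPC3, a U11/U12 protein, had 73.2, 33.8 and 109 FPKM in the shTRMT6 libraries, against 12.1, 12.5 and 6.65 FPKM in the shControl libraries (log2 fold change 2.57, SE 0.43, limma adjusted p = 0.00272), and SNRNP35, another U11 protein, had 6.30, 8.23 and 5.19 FPKM in the shTRMT6 libraries, against 19.6, 15.8 and 28.4 FPKM in the shControl libraries (log2 fold change -1.54, SE 0.32, limma adjusted p = 0.00672).

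The 13 further tri-snRNP and U5 genes had 2 higher and 2 lower, with the kinase PRPF4B at 1.64 and the cyclophilin PPIH at -0.86 (log2 fold changes). The 12 further U2 genes had 2 higher and 0 lower, led by the helicase DDX39B at 1.35. Of 19 genes of the PRPF19 complex 3 were higher, led by CWC25 at 1.95, and 4 lower, led by ISY1 at -1.25. Of 8 tested helicase and second-step genes 4 were higher and 0 lower, led by DHX38 at 2.02. Of 6 exon junction genes 1, CASC3, was higher at 1.51, and 3 were lower, led by MAGOH at -1.15. Of 6 tested genes of U7 and other LSM proteins 1, LSM10 of the U7 snRNP, was higher at 1.17. Of 8 partners of LSM1 in mRNA decay 3 were higher, led by the decapping cofactor DCP1B at 1.33, and 0 lower.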

How the data were processed

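Values are the FPKM per gene that the authors deposited, as named in the file headers. Per the submitters' processing notes, fastp, STAR and RSEM were used; roles, versions, genome build, annotation and the handling of strand and multi-mapped reads were not given in the sources used here. Table columns NC and SH were read as shControl and shTRMT6, which no label spells out, and no 2 libraries were identical. Of 20289 identifiers 19705 had a symbol, and 19556 a coding length in GENCODE 29 (GRCh38).

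Genes at 1 FPKM or more in 3 or more of the 6 libraries (11566) were fitted with limma (version 3.58.1, R 4.3.3) on log2 values with a pseudocount of 1, with group as the only term and a mean-variance trend. Calls had a Benjamini-Hochberg adjusted p under 0.05 over all of them. The fit was also run on simulated data with independent noise per gene and no shift of a whole library. That run did not cover the departure of shControl replicate 3. No count test was run, since 66.7% to 73.4% of low values lay within 0.1 of whole reads, and read numbers are estimates. Alternatives were median scaling, share of the sum, quantile normalization, removal of level and length trends (splines, 5 degrees of freedom), a pseudocount of 0.1, a replicate block, no filter, a filter at a mean of 5 FPKM, a threshold of 0.01 and each library left out. Members and lists were chosen with earlier results of these data known. Named genes are all members and, per neighbouring list, the called gene of largest change each way; other names were added after their values were seen. Python 3.11.15, pandas 2.3.3, numpy 2.4.6 and matplotlib 3.10.9 were used.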

Additional observations from a re-analysis of the deposited data

How the results depend on the processing

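The count of members called higher, 5, was 2 with median scaling, no filter or a threshold of 0.01, and 3 with share of the sum, quantile normalization or a pseudocount of 0.1. Leaving out a library gave 2 to 9, with 9 without shControl replicate 3 and 2 without each of the other five. The count called lower, 10, was 18 with median scaling, and 8 to 18 with a library left out, with 18 again without shControl replicate 3. Over all tested genes, 3069 higher became 1520 with median scaling, 1602 with quantile normalization, 1537 with trends removed, 1421 at the 0.01 threshold, and 1828 (without shTRMT6 replicate 3) to 3270 with a library left out. The 1046 lower became 2275, 1700, 1564 and 473 in the same settings, and 587 (without shTRMT6 replicate 1) to 1428. The ring median, -0.47, was -0.96 with median scaling 0.0147 with quantile normalization, -0.16 with trends removed, and -0.76 to -0.32 with a library left out. The large median, 0.66, was 0.16 with median scaling, 0.19 with trends removed, and 0.18 to 0.99 with a library left out, lowest without shControl replicate 1. The cause was not tested.

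No member that was called changed sign, but SNRPD1 and SNRPF did not pass with quantile normalization (limma adjusted p = 0.118 and 0.416), nor SF3B2 with share of the sum, and PRPF6 and SNRNP200 did not pass with any other scaling, with trends removed, with a pseudocount of 0.1 or without the filter. SNRPF also did not pass with that pseudocount or without the filter, nor SF3A2 with median scaling or without the filter. Uncalled members that changed sign were, with quantile normalization, SNRPE (0.0147), SNRPG (0.035), LSM1 (0.0193), LSM4 (0.0581), LSM7 (0.45), SNRPA1 (0.0271) and PRPF4 (-0.18). With trends removed they were LSM1 (0.18), LSM4 (0.0087), LSM7 (0.29), SNRPA1 (0.18) and PRPF4 (-0.30). With median scaling they were LSM3 (-0.24), LSM5 (-0.0805), LSM8 (-0.31), SNRNP70 (-0.0839) and PRPF4 (-0.34), and with share of the sum LSM1 (0.0528), SF3A3 (0.0519) and SNRPA1 (0.01). With a library left out, the log2 fold change ran from -0.35 to 0.15 for LSM1, -0.44 to 0.18 for LSM7, -0.30 to 0.50 for SF3A3, -0.36 to 0.16 for SF3B4, -0.17 to 0.0327 for SNRPA1, -0.0204 to 0.30 for LSM8, -0.11 to 0.46 for LSM3, -0.37 to 0.15 for SF3B1 and -0.35 to 0.18 for PRPF8.

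The replicate numbers did not show a pairing of the libraries: deviations from the group means of same-numbered libraries had correlations of 0.012, 0.013 and 0.102 over tested genes, and not every library correlated best with its own number. Whether same-numbered libraries shared a culture or day is not stated and cannot be decided from these values. With the replicate block 7 members were higher and 12 lower, beside 3146 higher and 1065 lower of the 11566 tested genes. The added members were SNRPA, SF3A1, SNRPD2 and SF3B5. TRMT6 kept its direction and call in every setting (-2.08 to -1.35). Values that rest on few reads, such as those of PRPF3 and PRPF6 in shControl, are less certain for that reason. SE was 0.35 for PRPF3 and 0.50 for PRPF6. It was 0.42 for SF3A3, which had an estimated 340.8 or more reads in each library.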
